A study of Mus musculus with 20 samples.

Results

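Expression of 9 genes that encode LIM-domain and zinc finger homeobox regulators was followed across mouse subiculum pyramidal cells sorted by projection target. The 9 genes are Lhx2 (ENSMUSG00000000247), Lmo1 (ENSMUSG00000036111), Lmo3 (ENSMUSG00000030226), Lmo4 (ENSMUSG00000028266), Ldb1 (ENSMUSG00000025223), Ldb2 (ENSMUSG00000039706), Zfhx2 (ENSMUSG00000040721), Zfhx3 (ENSMUSG00000038872) and Zfhx4 (ENSMUSG00000025255). They were taken by symbol, as 9 of 37607 gene rows in the bulk table and 9 of 47295 in the single-cell table. The set was selected on measured differences among the bulk populations. Its bulk values are therefore given as a description. How many of the 9 genes passed the fit over all genes is counted once beside the share of all genes, and supports nothing.

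The bulk part held 12 RNA-seq libraries, 3 biological replicates each of subiculum pyramidal cells labelled by their projection to NA, PFC, RSC or VHN. By custom NA stands for the nucleus accumbens, PFC for the prefrontal and RSC for the retrosplenial cortex, while VHN is left as the label has it. Fluorescent neurons had been sorted by hand from microdissected slices, and the labels give no strain, age or treatment and do not say how many animals or cells went into a library. Single cells came from 384 wells of 4 plates, of which 348 had at least 1000 detected genes and are used as 1 pooled sample.

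LIM domains are zinc-binding protein modules that hold transcription complexes together. LIM-homeodomain proteins such as Lhx2 bind DNA, and their LIM domains bind the adaptors Ldb1 and Ldb2, which dimerize and so join several factors. LIM-only proteins such as Lmo1, Lmo3 and Lmo4 have LIM domains but no DNA-binding domain and can occupy the same adaptors. Zfhx2, Zfhx3 and Zfhx4 are very large proteins that carry many zinc fingers together with several homeodomains. In the mouse forebrain Lhx2 is known for its part in forming the hippocampus, and Lmo4 for its patterned expression in cortical projection neurons.

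Promoter sequence was listed in the RefSeq table (GRCm38.p6) for 7 of the 9 genes, in 13 windows of 250 bases upstream of a start site. The first-listed windows of Lhx2 and Lmo4 are shown because these genes were both higher in the NA and PFC libraries, and that of Lmo1 because it holds a homeodomain core. The Lhx2 window is chr2:38339031-38339280 on the plus strand, the Lmo4 window chr3:144205256-144205505 on the minus strand and the Lmo1 window chr7:109175208-109175457 on the minus strand. Capitals mark matches to TAATTA (a homeodomain core), CANNTG (an E-box), GATA or GGGCGG (a GC box), searched on both strands, and neighbouring matches may overlap.
Lhx2: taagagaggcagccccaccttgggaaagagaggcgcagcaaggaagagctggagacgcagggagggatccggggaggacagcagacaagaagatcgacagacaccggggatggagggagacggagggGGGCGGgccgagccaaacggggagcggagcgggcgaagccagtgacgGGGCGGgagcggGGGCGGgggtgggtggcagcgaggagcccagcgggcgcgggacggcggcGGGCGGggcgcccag
Lmo4: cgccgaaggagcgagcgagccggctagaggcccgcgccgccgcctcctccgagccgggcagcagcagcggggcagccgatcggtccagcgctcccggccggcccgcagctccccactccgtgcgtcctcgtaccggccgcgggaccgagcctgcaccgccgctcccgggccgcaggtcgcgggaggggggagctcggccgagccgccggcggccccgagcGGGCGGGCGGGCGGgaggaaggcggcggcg
Lmo1: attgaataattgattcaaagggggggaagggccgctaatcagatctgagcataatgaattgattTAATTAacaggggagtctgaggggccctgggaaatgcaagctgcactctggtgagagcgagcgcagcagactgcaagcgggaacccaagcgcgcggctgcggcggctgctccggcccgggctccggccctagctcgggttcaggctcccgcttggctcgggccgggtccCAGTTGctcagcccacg

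The Lhx2 window held 4 GC boxes and the Lmo4 window 3, of which those of Lmo4 overlap or adjoin. Among all 32851 windows of the same length, 32.7% held a GC box, 66.2% an E-box, 53.6% a GATA match and 4.84% a TAATTA match. The Lmo1 window held 1 TAATTA match, 186 bases before the start site, and 1 E-box, 17 bases before it. GC content was 72.8% in the Lhx2 window, 82.4% in the Lmo4 window and 61.2% in the Lmo1 window. A match is a stretch of letters and not a measured binding site.

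Library depth was 10777273 to 20904126 gene fragments, and levels are library-scaled counts (CPM), corrected by TMM, a normalization across libraries. Slc17a7, the vesicular glutamate transporter of cortical pyramidal cells, was at 513 to 1024 CPM in every library. The summed CPM of 6 pyramidal markers was 2878 to 3969 in NA, 3082 to 3743 in PFC, 2069 to 2360 in RSC and 2049 to 2357 in VHN. Camk2a made up much of each sum (1020 to 2393 CPM). Slc17a6, also among the 6, ran the other way, at 37.9 to 174 CPM in NA and PFC and 290 to 537 CPM in RSC and VHN. Interneuron markers (10 genes) summed to 0.156 to 12.1 CPM in NA and 0.520 to 2.70 in PFC, against 5.25 to 243 in RSC and 1.52 to 187 in VHN, and RSC replicates 2 and 3 and VHN replicate 3 were the high libraries. Astrocyte markers stayed at or below 12.9 CPM and microglial markers at or below 1.05 CPM summed. Oligodendrocyte markers summed to 71.4 to 152 CPM in VHN and 38.7 to 73.7 elsewhere. The 8 CA1 pyramidal markers summed to 732 to 786 CPM in NA, 1164 to 2370 in PFC, 441 to 522 in RSC and 431 to 543 in VHN. Not every gene of this list followed the sum. Mpped1 was at 96.3 to 159 CPM in NA and PFC and 149 to 251 CPM in RSC and VHN. Pou3f1 was at 35.1 to 99.9 CPM in NA and PFC and 55.6 to 74.9 CPM in RSC and VHN. Of the 4 endothelial and mural markers, which summed to 24.0 to 91.8 CPM in NA and PFC and 2.02 to 21.5 in RSC and VHN, Cldn5 was at 0 in all 12 libraries and nearly all the signal was Rgs5. In bulk samples, fewer cells of a type and less RNA per cell cannot be told apart, and the part of these markers in the values below was not tested except where a value without a library is given.

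Of the 9 genes, Lhx2, Lmo4, Zfhx4 and Ldb2 were past an adjusted p of 0.05 in the edgeR 4-population test, as were 8.93% of the 13916 genes tested. All 9 genes were among those tested after the filter on low counts. Lhx2, Lmo4 and Zfhx4 were higher in NA and PFC together than in RSC and VHN together, a direction called for 7.58% of genes, and none of the 9 was called lower, against 6.66% of genes. Between NA and PFC only Ldb2 was called, against 0.438% of genes. These counts follow from how the genes were selected and nothing is read from them. Between RSC and VHN edgeR called 0 of the 9 and 0 of all genes tested, with 721 genes at an unadjusted p under 0.05 and 83 called by DESeq2, among them Zfhx4. The median log2 difference of the 9 genes was 0.31 between the pairs of populations, and that of all genes tested 0.01.

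**Figure D1:**
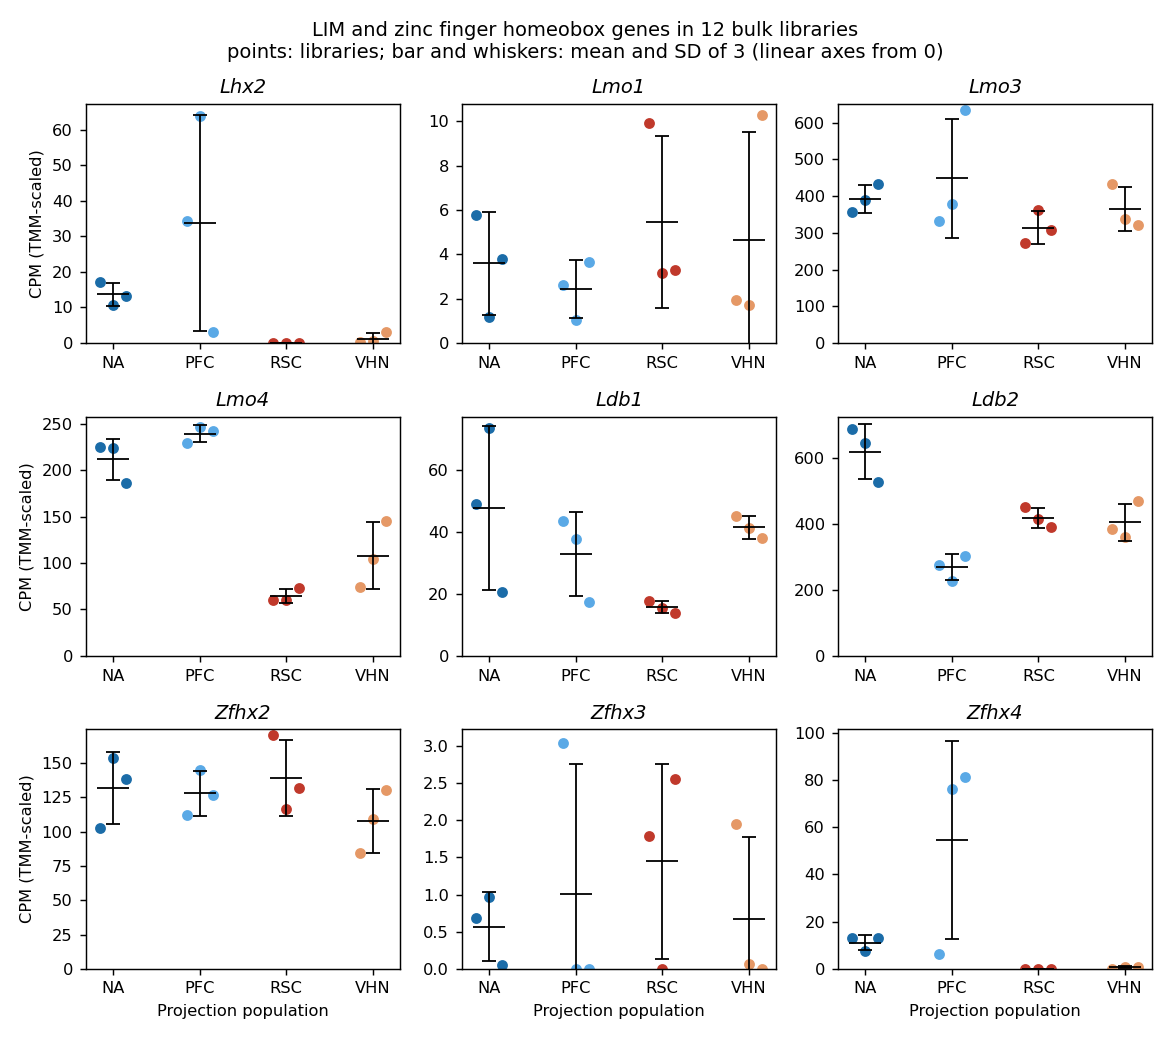
Level of each of the 9 genes (CPM, linear axis from 0) in the 3 libraries of the NA, PFC, RSC and VHN populations; points are libraries, the bar is their mean and the whiskers 1 SD. Lmo4 and Zfhx4 lie higher in all 6 NA and PFC libraries, Lhx2 is near 0 in RSC, and Ldb2 is highest in NA and lowest in PFC.

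Lhx2, the only LIM-homeodomain gene of the set, was at 17.1, 10.7 and 13.2 CPM in NA replicates 1 to 3 and at 34.4, 63.8 and 3.00 CPM in PFC. In RSC it was at 0.0577, 0.0551 and 0.0966 CPM, which is 1, 1 and 2 fragments, and in VHN at 0.158, 0.536 and 3.03 CPM. All NA libraries lay above all VHN libraries, and all VHN libraries above all RSC libraries, whereas PFC spanned the NA values. The lowest PFC library (3.00 CPM) and the highest VHN library (3.03 CPM) met, so the 2 pairs of populations overlapped by 1 library on each side, with TMM scaling and without it (2.97 and 3.21 CPM). VHN replicate 3 was also the VHN library with the most Gad2, at 91.9 CPM. Summed over libraries, Lhx2 was 198-fold higher in NA than in RSC (95% counting interval 77.0 to 729) and 517-fold higher in PFC than in RSC (202 to 1902), both against only 4 fragments in RSC. These intervals cover counting error only and leave out the spread between libraries, which in PFC ran from 3.00 to 63.8 CPM. The fitted log2 difference between the pairs was 6.10 (SE 0.886), and 7.01 without VHN replicate 3.

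Lmo4 separated the pairs of populations without overlap, while the populations within a pair lay closer. It was at 225, 224 and 187 CPM in NA and 229, 246 and 242 CPM in PFC, but at 60.4, 60.0 and 72.7 CPM in RSC and 73.7, 104 and 146 CPM in VHN. The order of means was PFC (239 ± 9.10, SD, n = 3), NA (212 ± 21.9), VHN (108 ± 36.1) and RSC (64.4 ± 7.20), and no library of one population reached into the next, although PFC replicate 1 exceeded NA replicate 1 by less than the SD within NA. VHN replicate 1 (73.7 CPM) and RSC replicate 3 (72.7 CPM) were nearly level. Neither NA against PFC nor RSC against VHN was called for Lmo4 by edgeR. The share of all genes with such an order of populations was not computed. With 6 libraries on each side the ratio of means was 2.62 and the log2 difference 1.43 (SE 0.176). Libraries of NA and PFC all lay above those of RSC and VHN for Lmo4 and Zfhx4, and the same held for 3.57% of all genes tested. Without VHN replicate 3 the log2 difference between RSC and VHN moved from −0.75 to −0.47.

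The other LIM-only genes had no such pattern. Lmo3 was the more abundant, with 356, 389 and 432 CPM for NA, 331, 380 and 633 for PFC, 272, 361 and 308 for RSC and 433, 339 and 322 for VHN. Every neighbouring pair of populations overlapped, and the log2 difference between the pairs of populations was 0.31 (SE 0.159). Lmo1 was low in every library, with 5.78, 1.18 and 3.81 CPM for NA, 2.60, 1.04 and 3.66 for PFC, 9.92, 3.14 and 3.29 for RSC and 1.94, 1.73 and 10.3 for VHN. All 4 populations overlapped, and the highest value belonged to the same VHN replicate 3 that was highest for Lhx2 in its population.

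Of the adaptors, Ldb2 was higher in NA than in PFC. It was at 687, 644 and 527 CPM in NA and 275, 226 and 304 CPM in PFC, with RSC (451, 414 and 390) and VHN (385, 361 and 468) between them. NA lay above all other libraries and PFC below all others, while RSC and VHN overlapped. The log2 difference of NA against PFC was 1.21 (SE 0.177), and that of the pairs of populations was −0.01 (SE 0.124). Ldb1 was at 49.0, 73.3 and 20.5 CPM in NA, 43.3, 37.7 and 17.3 in PFC, 17.8, 15.6 and 13.8 in RSC and 45.2, 41.0 and 38.0 in VHN. Ldb1 in RSC lay below VHN in all libraries (log2 difference −1.40, SE 0.497, not called by edgeR), and the spread within NA (SD 26.4 CPM) exceeded the difference between NA and VHN.

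Among the zinc finger homeobox genes, Zfhx4 followed the split of the populations and Zfhx2 and Zfhx3 did not. Zfhx4 was at 12.9, 7.40 and 12.9 CPM in NA and 6.41, 76.3 and 81.3 CPM in PFC, with 0 fragments in all 3 RSC libraries and 0.105, 0.774 and 0.934 CPM in VHN. PFC replicate 1 lay below all NA libraries and the other PFC libraries above them, whereas VHN lay below both populations. Within PFC the 8 CA1 markers summed to 1164 CPM in replicate 1 and 2370.3 and 1892 CPM in replicates 2 and 3. Wfs1, Fibcd1, Man1a, Mpped1, Spink8, Zbtb20 (49.0, 551 and 609 CPM) and Pou3f1 (35.1, 36.7 and 99.9 CPM) were each lowest in PFC replicate 1. Dcn alone was highest there (346, 322 and 92.6 CPM). The 3 genes with printed values were picked after their values were seen. How many of all genes were lowest in PFC replicate 1 was not counted. Lhx2 was lowest in PFC replicate 3 (3.00 CPM). Whether CA1 signal has a part in the spread of Zfhx4 within PFC was not tested. Against a floor of 3 fragments over the RSC libraries, Zfhx4 was at least 1044-fold higher in PFC, at least 220.4-fold higher in NA and at least 11.0-fold higher in VHN. The ratio of PFC to VHN, from fragments summed over libraries, was 95.2 (95% counting interval 66.9 to 141). This interval covers counting error only and leaves out the spread between libraries, which in PFC ran from 6.41 to 81.3 CPM.

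Zfhx2 was even across populations, with mean levels (± SD, n = 3 each) of 132 ± 26.3 CPM for NA, 128 ± 16.5 for PFC, 139 ± 27.8 for RSC and 108 ± 23.0 for VHN. Its lowest library was VHN replicate 1 (84.3 CPM) and its highest RSC replicate 1 (170.3 CPM). A later mouse annotation (GENCODE) places opposite-strand genes across every member but Lmo4, among them Zfhx2os across Zfhx2 and Pprc1 across Ldb1. Since the strand of counting is not stated, reads in a stretch shared by such a pair cannot be told apart. The overlap is of whole gene spans, and shared exons were not examined. Zfhx3 did not exceed 3.03 CPM in any library and had 0 fragments in 2 of the PFC libraries, 1 RSC library and 1 VHN library. No order of populations can be read for Zfhx3.

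Levels of different genes can be set side by side only per length, in the authors' FPKM. Mean FPKM by population ran from 106 to 243 for Ldb2, 110 to 167 for Lmo3 and 45.6 to 175 for Lmo4. The same means were 10.2 to 28.9 for Ldb1, 11.3 to 14.2 for Zfhx2, 0.0449 to 12.3 for Lhx2, 2.23 to 4.94 for Lmo1 and 0 to 4.66 for Zfhx4. Zfhx3 was lowest, at no more than 0.0855. In these units the adaptor Ldb2 exceeded Ldb1 in all 4 populations.

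Across the 12 libraries, the genes whose log2(CPM + 1) was most like that of Lmo4 were Kit (Pearson r = 0.983), the receptor of stem cell factor, Mapk4 (0.979) and Tmcc1 (0.976). For Lhx2 they were Ak4 (0.964), Shisa9 (0.953) and Dbpht2 (0.940), and for Zfhx4 Kbtbd11 (0.963), Sipa1l3 (0.959) and Trim2 (0.948). Ldb2 was closest to Rab3c (0.927), Prepl (0.926) and Ank2 (0.903). For Lmo3 they were Qsox2 (0.910), Tmed2 (0.876) and Cish (0.876), and for Ldb1 Rnf5 (0.894), Gramd1a (0.891) and Nvl (0.878). Lower values led for Lmo1 with Mars (0.827), Smc6 (0.800) and Hnrnph1 (0.797), for Zfhx2 with Mtmr6 (0.805), Cep70 (0.804) and Zfp759 (0.795) and for Zfhx3 with Slc25a36 (0.791), Telo2 (0.767) and Ssr1 (0.762). Among the members, Lmo4 had r = 0.886 with Lhx2 and 0.882 with Zfhx4. These correlations describe 12 libraries in 4 populations, and 9572 genes were searched.

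The other genes of the pathway were given by 3 lists that do not contain the 9 members and were written with earlier results of these data known. In this comparison 7.58% of all genes tested were called higher and 6.66% lower. Of 20 partners of LIM complexes, 19 had a row in the bulk table and 7 were tested. Of these, 1 was higher in NA and PFC than in RSC and VHN and 0 were lower, with a median log2 difference of 0.33 against 0.01 for all genes. Ssbp2, a single-stranded DNA-binding protein that stabilizes Ldb adaptors, ranged from 63.4 to 125 CPM (median 81.6) in the NA and PFC libraries and from 36.3 to 68.2 CPM (median 44.9) in RSC and VHN. These ranges overlapped, and the log2 difference was 0.91 (SE 0.248, edgeR adjusted p = 0.0203). This call was lost without PFC replicate 1 (adjusted p = 0.0633), without RSC replicate 3 (0.0510) and without VHN replicate 2 (0.0611). Its relatives Ssbp3 (1.04-fold) and Ssbp4 (1.53-fold) and the ubiquitin ligase Rlim (1.24-fold), known to target LIM cofactors, were not called. For Rlim the pairs did not overlap (lowest NA or PFC library 199 CPM, highest RSC or VHN library 194.5). Lmo2, a LIM-only gene, had a larger log2 difference (4.10, SE 1.58) and was not called by edgeR (adjusted p = 0.0975). DESeq2 called Lmo2 (adjusted p = 0.0372). It ranged from 0.0867 to 22.6 CPM in NA and PFC and from 0 to 1.40 CPM in RSC and VHN. The LIM-homeodomain genes of the list that had a row (Lhx1, Lhx3, Lhx4, Lhx5, Lhx6, Lhx9, Isl1, Isl2, Lmx1a and Lmx1b) were at no more than 2.60 CPM in any library. Among LIM-homeodomain genes measured here, Lhx2 was thus the one with at least 10 CPM in several libraries.

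Other zinc finger homeobox genes made up the next list. Of 11 genes 10 were tested, of which 3 rose and 4 fell in the NA and PFC libraries, beside 7.58% and 6.66% of all genes, with a median log2 difference of −0.55. Zeb2, a zinc finger E-box repressor, was at 695, 680 and 810 CPM in NA and 1165, 1838 and 1551 CPM in PFC. In RSC it was at 10.4, 24.0 and 108 CPM and in VHN at 17.6, 151 and 378 CPM, and the highest RSC and VHN libraries were those with the most interneuron marker signal. The groups did not overlap, and the log2 difference was 3.50 (SE 0.577, edgeR adjusted p = 0.000595). It was 4.23 without RSC replicate 3, and Zeb2 stayed called. Without RSC replicates 2 and 3 and VHN replicate 3 together, which leaves only replicate 1 of RSC, the log2 difference was 5.16.

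Its relative Zeb1 went the other way, from 73.4 to 110.0 CPM (median 102) in RSC and VHN and from 22.9 to 77.9 CPM (median 33.3) in NA and PFC, with a log2 difference of −1.17 (SE 0.309, edgeR adjusted p = 0.0170). The teashirt genes, zinc finger repressors with a homeodomain-like region, were all lower in NA and PFC. Tshz2 was at 168, 175 and 121 CPM in NA, 90.5, 6.37 and 137 CPM in PFC, 510.1, 529 and 571 CPM in RSC and 524, 414 and 497 CPM in VHN. Its log2 difference was −2.21 (SE 0.419, edgeR adjusted p = 0.00183) and no libraries of the opposite pairs overlapped. Tshz3 ranged from 7.48 to 39.6 CPM in NA and PFC and from 69.0 to 109 CPM in RSC and VHN (log2 difference −1.99, SE 0.389, edgeR adjusted p = 0.00227). Tshz1 was low, from 0.188 to 3.29 CPM against 3.33 to 69.4 CPM, and its call (log2 difference −3.11, SE 0.822, edgeR adjusted p = 0.0174) was lost without VHN replicate 2 (log2 difference −1.92, adjusted p = 0.193), the library at 69.4 CPM.

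Zhx1 (log2 difference 0.75, SE 0.213, edgeR adjusted p = 0.0246) and Zhx3 (0.70, SE 0.195, edgeR adjusted p = 0.0223), zinc finger and homeobox repressors, were higher in NA and PFC with overlapping libraries. Both changes were near the threshold. The Zhx1 call was lost without any one of NA replicate 2, PFC replicate 1, RSC replicates 1 and 2 and VHN replicates 1 and 2 (adjusted p 0.0503 to 0.0692), and the Zhx3 call without any one of PFC replicate 1, RSC replicate 2 and VHN replicates 1 and 2 (0.0569 to 0.0652). No gene of the 3 lists was called between NA and PFC or between RSC and VHN.

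Cytoskeletal LIM proteins, which share the LIM domain but are not transcription factors, served as a comparison list. Of 36 genes 23 were tested, of which 1 was higher and 1 lower, beside 7.58% and 6.66% of all genes, with a median log2 difference of 0.23. Ablim1, an actin-binding LIM protein, ranged from 3.75 to 59.8 CPM in NA and PFC and from 0.420 to 6.28 CPM in RSC and VHN (log2 difference 3.23, edgeR adjusted p = 0.00729), with overlap. Lpp, a focal adhesion protein, was lower in NA and PFC (8.23 to 34.8 CPM) than in RSC and VHN (34.8 to 58.0 CPM), where the nearest libraries of the groups were equal after rounding (log2 difference −1.41, edgeR adjusted p = 0.00432). Without the 3 libraries that had the most interneuron signal (RSC replicates 2 and 3 and VHN replicate 3), only replicate 1 of RSC was left, so effect sizes alone are given. The log2 differences of Ssbp2, Zeb1, Zhx3 and Lpp were then 0.96, −1.16, 0.76 and −1.54, against 0.91, −1.17, 0.70 and −1.41 in the full fit. That of Ablim1 was 3.89, against 3.23 in the full fit.

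**Figure D2:**
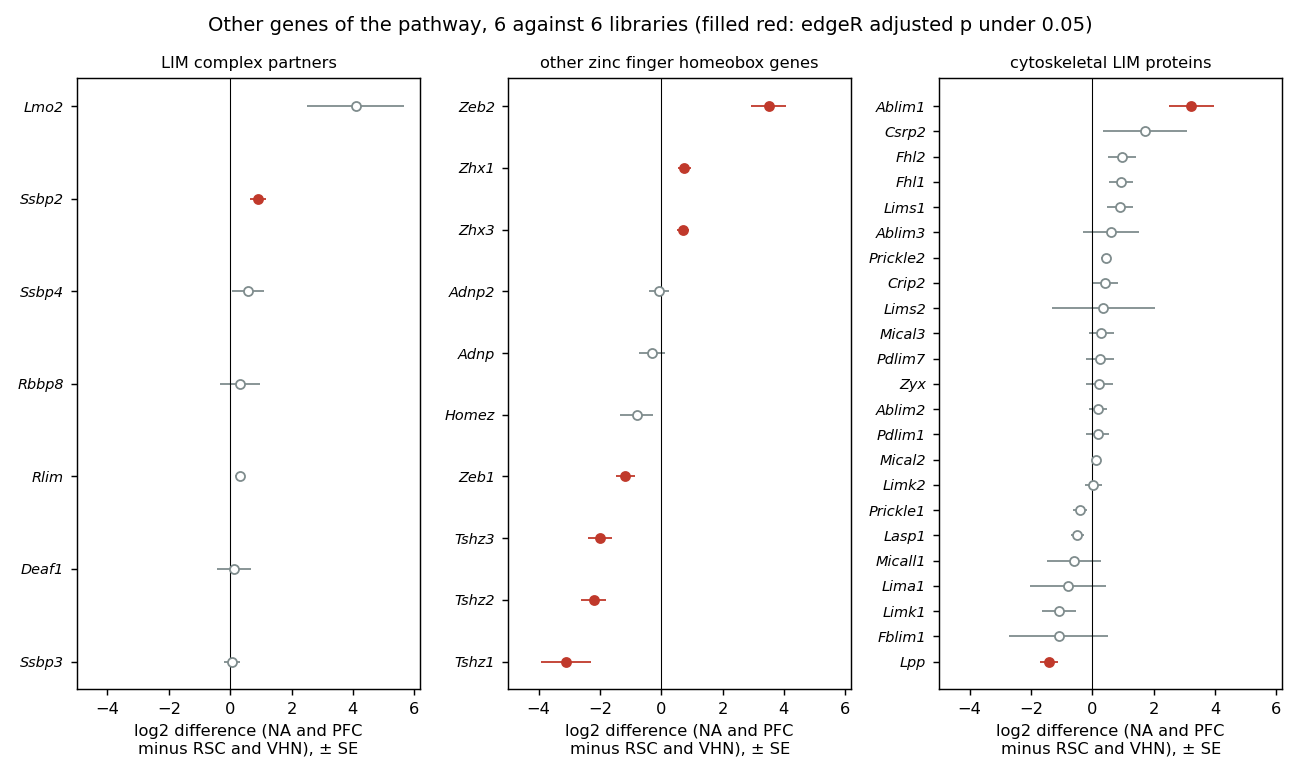
Log2 difference (NA and PFC minus RSC and VHN, 6 against 6 libraries) of every tested gene of the 3 lists, with its standard error; filled red points are past an edgeR adjusted p of 0.05. Zeb2 lies furthest to the right and Tshz1, Tshz2 and Tshz3 furthest to the left among the other zinc finger homeobox genes.

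In the single cells, Slc17a7 had a count in 326 of 348 wells (93.7%) and Gad1 or Gad2 in 3 wells. Wells held a median of 112401 counts (2795 to 322542). With 1 pooled sample there is no test, and the intervals given cover counting error only. Ldb2 had a count in 87.1% of wells (exact 95% interval 83.1 to 90.4), Lmo4 in 83.9% (79.6 to 87.6), Lmo3 in 73.3% (68.3 to 77.9), Lmo1 in 65.2% (60.0 to 70.2), Zfhx2 in 54.0% and Ldb1 in 37.1%. Lhx2 was found in 37 wells (10.6%, 7.60 to 14.4), Zfhx4 in 11 wells (3.16%) and Zfhx3 in 6 wells (1.72%). Across the 4 plates the share of wells with Lhx2 ran from 7.87% to 13.3%, and that with Lmo4 from 78.3% to 90.0%.

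Levels in wells and in bulk libraries differed by gene. Lmo1 reached 103 CPM of summed counts in the wells, against a mean of 4.03 CPM over the 12 bulk libraries, and was at 81.2 CPM or more on every plate. Zfhx4 was at 2.04 CPM in wells against 16.6 CPM in bulk, Lmo3 at 83.5 against 380 CPM and Zfhx2 at 30.4 against 127 CPM. Lmo4 (229 against 156 CPM) and Ldb2 (209 against 428 CPM) were nearer. The 2 tables come from different cells and separate counting, and the cause of these differences was not tested.

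Wells were divided by 4 genes outside the set, at 50 CPM, into 16 wells with Nts and Sv2c, 211 with Nts but not Sv2c, 58 with Calb1 and no Nts, 21 with Rprm and neither Nts nor Calb1, and 42 others. Nts encodes the peptide neurotensin, Calb1 the calcium buffer calbindin, Sv2c a synaptic vesicle protein and Rprm a cell cycle inhibitor used as a deep-layer neuron marker. Median depth was 115357, 117311, 115059, 97264 and 47765 counts in that order, so the other wells were shallower. Between 25 and 100 CPM, near the cut, lay 29 wells for Nts, 11 for Sv2c, 10 for Calb1 and 36 for Rprm.

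Lmo4 was highest in the Rprm wells and lowest in the Calb1 wells, while Lhx2 was highest in the Calb1 wells and had no count in the Rprm wells. Lmo4 was at 624 CPM of summed counts (95% counting interval 592 to 658) in the Rprm wells, 245 CPM (239 to 251) in the Nts wells without Sv2c, 138 CPM (122 to 157) in those with Sv2c and 83.2 CPM (76.5 to 90.3) in the Calb1 wells. On all 4 plates Lmo4 was higher in Rprm wells (436 to 746 CPM by plate) than in Nts wells without Sv2c (167 to 302), and higher there than in Calb1 wells (31.4 to 113). The median well of these classes had 540.1, 191 and 35.1 CPM of Lmo4. In the other wells Lmo4 was at 180.5 CPM, but 394 CPM on 1 plate and 27.8 to 57.3 CPM on the remaining 3.

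Lhx2 had a count in 36.2% of Calb1 wells (24.0 to 49.9), against 5.69% of Nts wells without Sv2c (2.97 to 9.72) and 0 of 21 Rprm wells (exact interval up to 16.1). These shares count wells with a read of the gene, not cells that express it. With each well thinned to 20000 counts these shares were 20.7%, 3.79% and 0%. In the 16 Nts wells with Sv2c, Lhx2 had 1 count in 1 well (6.25%, against 5.69% in those without Sv2c). This is 0.565 CPM (counting interval 0.0143 to 3.15), and no order of these 2 classes is read from 1 count. The level of Lhx2 was 21.9 CPM in Calb1 wells and 4.24 CPM in Nts wells without Sv2c. It was higher in the Calb1 wells than in these Nts wells on 4 of 4 plates (15.7 to 26.4 against 0.167 to 7.34 CPM). In the other wells Lhx2 was at 7.25 CPM, but at 48.1 CPM on 1 plate, above the 19.9 CPM of the Calb1 wells there. On the remaining plates the other wells were at 0 to 0.900 CPM. Wells with a count of Lhx2 numbered 37, of which 30 also had Calb1 and 29 also had Lmo4. Spearman's rho of Lhx2 with Lmo4 over 348 wells was −0.21 (−0.15 thinned), whereas their Pearson r over the 12 bulk libraries was 0.89. Both are descriptions, of single wells in one case and of sorted populations in the other.

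**Figure D3:**
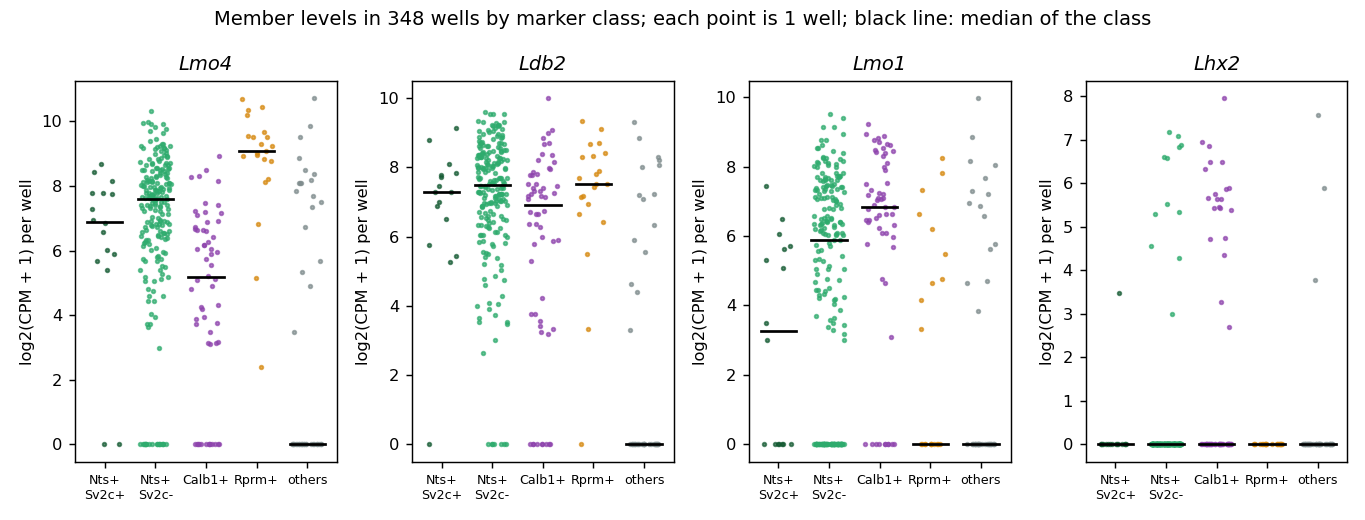
Lmo4, Ldb2, Lmo1 and Lhx2 in each of 348 wells, as log2(CPM + 1), by marker class; each point is 1 well and the black line is the class median. Lmo4 is highest in the 21 Rprm wells, and most Lhx2 wells outside the baseline belong to the 58 Calb1 wells or the 211 Nts wells without Sv2c.

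Lmo1 resembled Lhx2 in its order, at 157 CPM (148 to 167) in Calb1 wells, 100.1 CPM (96.2 to 104) in Nts wells without Sv2c and 29.2 CPM (22.5 to 37.2) in Rprm wells. Calb1 wells exceeded both other classes on 4 of 4 plates. Lmo3 was lowest in the Calb1 wells, at 53.3 CPM (47.9 to 59.1), and at 91.9 CPM (88.3 to 95.7) in the Nts wells without Sv2c, again in that order on 4 of 4 plates. Ldb2 was at 150.5 CPM (141 to 160.0) in Calb1 wells, 234 CPM (228 to 240) in Nts wells without Sv2c and 235 CPM (215 to 256) in Rprm wells, and the first of these differences held on 3 of 4 plates. Ldb1 lay between 15.3 and 20.6 CPM in all 5 classes, with overlapping intervals. Zfhx2 was at 38.9 CPM (34.3 to 43.8) in Calb1 wells and 14.8 CPM (10.2 to 20.8) in Rprm wells.

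Zfhx4 was sparse, with a count in 5 of 58 Calb1 wells (8.62%, 2.86 to 19.0), 4 of 211 Nts wells without Sv2c (1.90%) and 2 of 42 other wells. The 6 wells with Zfhx3 were all among the 42 other wells (14.3%, 5.43 to 28.5), and none of the 6 had a count of Slc17a7. Split by Nts alone, Lhx2 was at 4.00 CPM in 227 wells with Nts and 14.3 CPM in 121 without, and Zfhx4 at 1.35 and 3.65 CPM, each higher without Nts on 4 of 4 plates. For Zfhx4 these levels rest on 4 wells with Nts and 7 without. The direction of Zfhx4 did not hold on every plate with Nts cut at 10 CPM. There its lowest plate level was 0 CPM without Nts and 0.134 CPM with Nts. Lmo4 was at 238 CPM with Nts and 208 CPM without, and higher with Nts on 4 of 4 plates. Its highest plate levels were nearly equal, however, at 301.6 CPM with Nts and 301.4 CPM without. Wells without Nts join the Rprm wells (624 CPM of Lmo4) and the Calb1 wells (83.2 CPM). At an Nts cut of 10 CPM Lmo4 was at 238 and 203 CPM, with highest plate levels of 284 and 342 CPM. Ldb2 was at 231 CPM with Nts and 157 CPM without, higher with Nts on 4 of 4 plates. Lmo3 was at 91.1 and 66.0 CPM and Lmo1 at 95.9 and 119 CPM.

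Of the called list genes, Zeb2 was at 88.4 CPM in wells with Nts and 190.0 CPM in wells without (higher without Nts on 4 of 4 plates). Tshz2 was at 308 and 159 CPM (higher with Nts on 3 of 4 plates) and Tshz3 at 23.4 and 6.71 CPM (on 4 of 4 plates). Zhx1 was at 39.7 CPM with Nts and 24.4 CPM without, and Zhx3 at 20.9 and 27.4 CPM. Ssbp2 was at 104 and 123 CPM and Zeb1 at 19.9 and 15.3 CPM. The wells are not labelled by projection target, so the split by Nts is not matched to the bulk populations.

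**Figure D4:**
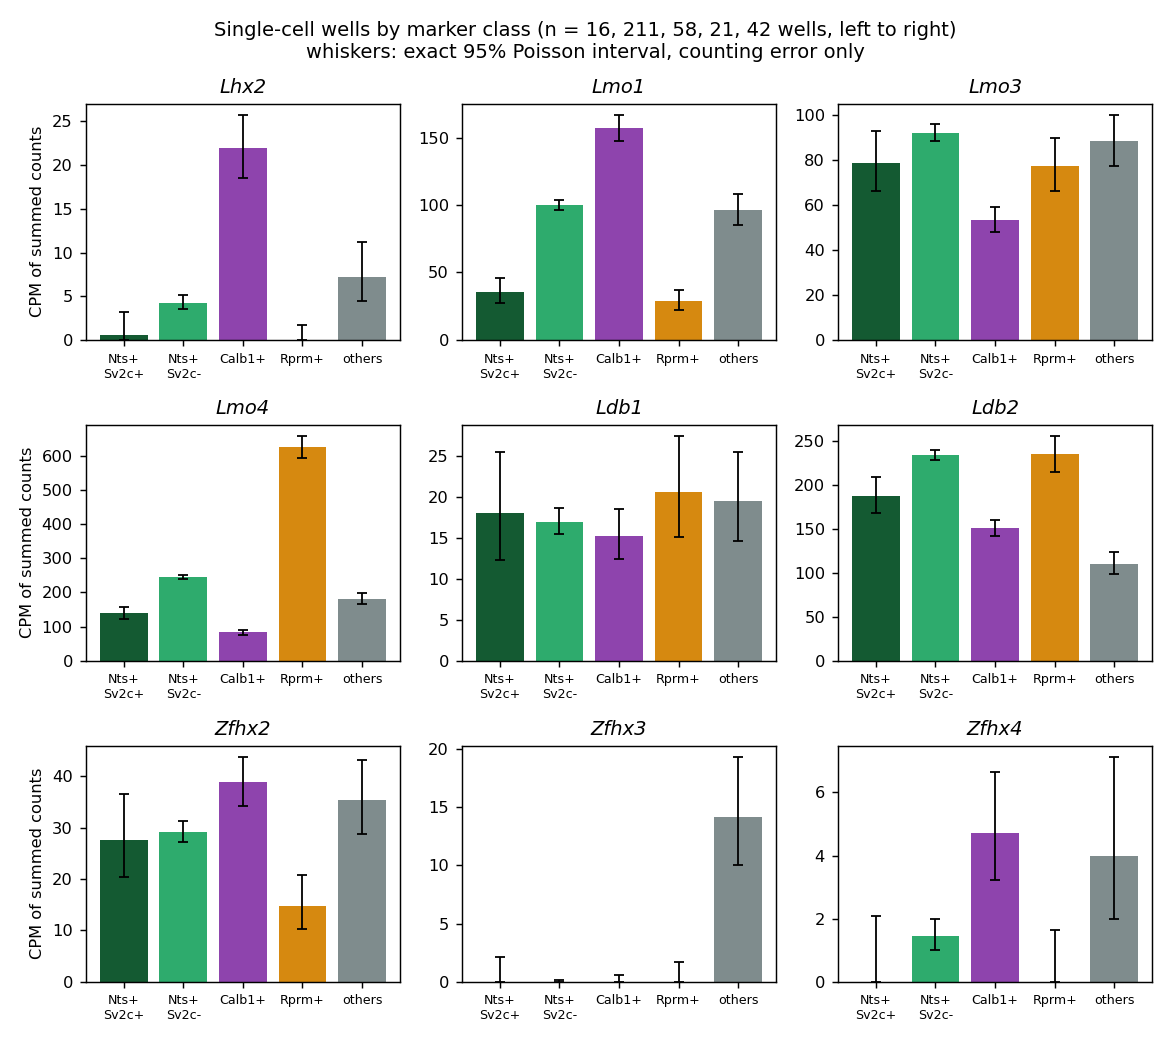
CPM of summed counts of the 9 genes in 5 marker classes of wells (16, 211, 58, 21 and 42 wells from left to right), with exact 95% Poisson intervals for counting error. Lmo4 peaks in the Rprm wells, Lhx2 and Lmo1 in the Calb1 wells, and Zfhx3 appears in the other wells.

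Over the wells, the genes most like Lmo4 by Spearman's rho were Rprm (0.50, or 0.38 in thinned wells), Tmem91 (0.45) and Fezf2 (0.43), a transcription factor of subcortically projecting neurons. Ldb2 was closest to Adgra1 (0.40), Fezf2 (0.39) and Tspan13 (0.38). Lmo3 was closest to Lmo4 itself (0.31), Tmem91 (0.31) and Nrsn2 (0.29), and Lmo1 to Ctxn1 (0.39), Nnat (0.38) and 6330403A02Rik (0.35). For Zfhx2 (Gria3, 0.27; Nrip1, 0.26; Wasf1, 0.25) and Ldb1 (Nae1, 0.23; Ttll11, 0.21; Aff4, 0.21) the highest values were weak. The search covered 7996 genes with a count in at least 20% of 348 wells, which share plates and vary in depth. Kit, the gene most like Lmo4 in the bulk libraries, had a rho of −0.15 with Lmo4 over the wells.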

How the data were processed

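Sorted subiculum pyramidal cells were profiled in 12 bulk libraries and 384 single-cell wells. Per the file headers, the bulk table is Cuffdiff read-group tracking output, which gives expected counts (raw fragments) and FPKM per gene and library, both as the authors deposited them. In the deposited single-cell table each gene and well has a whole-number count, which was not scaled. The genome build was mm9, per the submitters' processing notes. The aligner, annotation and strand setting are not given in the sources used here, and neither is the use of molecular identifiers.

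Expected counts were rounded (8.51% of those above 0 were not whole), and 92 spike-in rows, all 0, were left out. Symbols were matched by Ensembl identifier. In edgeR 4.0.16 genes were filtered with filterByExpr (smallest count 10, 13916 genes left), scaled by TMM and fitted by quasi-likelihood over all 12 libraries, with Benjamini-Hochberg adjustment over all genes. Here the common biological coefficient of variation was 0.736. The fit was tested on simulated data. CPM and ratios of mean CPM were computed here. Library numbers follow the labels, the table counts replicates from 0, and their order was assumed only for naming. DESeq2 1.42.0 was an alternative, next to other size factors, no filter, the replicate block and leaving out libraries.

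Wells with fewer than 1000 detected genes were left out (36), doublets were not called, and 8 wells fell under the 20000 counts used for thinning. The single-cell labels name 8 samples and the table names 4 plates, so all wells are 1 pooled sample. A planned split of wells by Fn1 was not analysed here, and Nts was used in its place, chosen after seeing the data. Scipy 1.17.1 gave intervals and rank correlations.

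The members and lists were chosen with earlier results of these data known. Text names all 9 members, every called list gene up to 6 per list (the last of 7 in the zinc finger homeobox list, Zhx1, is named beyond this rule), and the 3 genes most alike each member. A gene was searched over libraries where its highest population had at least 10 CPM, and over wells where at least 20% had a count.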

Additional observations from a re-analysis of the deposited data

How the results depend on the processing

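Over the alternatives run, log2 differences between the pairs of populations ranged from 5.68 to 7.15 for Lhx2, 1.33 to 1.63 for Lmo4 and 8.21 to 8.76 for Zfhx4, and that of Ldb2 between NA and PFC from 1.10 to 1.31. These genes were selected on the same differences, so the ranges are a description. Counts of genes called over the whole table moved more. Without a filter on low counts, 2709 genes differed among the 4 populations, 514 between NA and PFC and 93 between RSC and VHN, and 2 LIM complex partners were called. DESeq2 called 2839 and, between the pairs of populations, 3058, then 591 and 83, with 2 partners and 5 cytoskeletal LIM genes. Without RSC replicates 2 and 3 and VHN replicate 3 together, which have the most interneuron signal, the counts were 446, 746 and 16, with 0 partners and 1 cytoskeletal gene. Without NA replicate 2 and PFC replicate 3 together, an alternative chosen after seeing the data, 4 cytoskeletal genes were called. Leaving out 1 library gave 892 to 1472, 1488 to 2176, 22 to 152 and 0 to 19 genes for the 4 comparisons (19 without VHN replicate 1), and 0 to 1 partners, 4 to 7 zinc finger homeobox genes and 2 to 4 cytoskeletal genes. Without RSC replicate 3 the 1 partner called was Lmo2, not Ssbp2. Apart from fewer libraries or more genes tested, the cause was not tested.

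With the replicate block the counts were 1098, 1803, 52 and 0, and 1, 7 and 2 for the lists. Same-numbered libraries had correlations of −0.03 to 0.04 in 18 pairs, so no shared deviation by replicate number was seen. Whether same-numbered libraries came from the same animals or day cannot be told from these values. Low counts limit the ratios of Lhx2 against RSC, which rest on 4 fragments, and the values of Zfhx3, with at most 53 fragments a library. The RSC libraries themselves were not shallow, at 17399784 to 20904126 fragments. In thinned wells the share over all wells fell for every member. The Nts split at 10 CPM, also chosen after seeing the data, gave a difference of −36.4 CPM for Lmo1 and 92.4 CPM for Ldb2. The planned split at other Fn1 cuts was not run.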
